A study of Nicotiana tabacum with 16 samples.

Results

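Root RNA of the triple recessive tobacco (Nicotiana tabacum) genotype nic1 nic2 myc2a, with recessive alleles at Nic1, Nic2 and Myc2a together, was compared with root RNA of the nearly isogenic cultivar K326. The comparison was drawn by genotype label: 4 libraries of K326 nic1/nic2/myc2a and 4 libraries of K326, which is 8 of the 16 libraries of the study. The other libraries, 3 of K326 nic1/nic2 and 5 of K326 myc2a, carry part of the same alleles and are used where they help to place a gene. The plants of every genotype, the K326 controls included, stood in pots in a greenhouse, were topped at flowering and gave roots 18 h later, so no genotype was measured without topping. The labels do not state that each library came from a separate plant, so p-values reflect how far these libraries spread, which may be technical. The number of independent lines per genotype is not stated.

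Nicotine is made in tobacco roots and carried to the leaves. Removal of the flower head raises jasmonate in the plant, and jasmonate switches on the nicotine genes of the root through MYC2 proteins of the bHLH class and through ERF transcription factors. Nic2 holds a cluster of such ERF genes, Nic1 is a second locus of low nicotine content, and Myc2a encodes 1 of the MYC2 proteins. The design text of the series asks how root expression differs between genotypes at these loci. The gene models of the deposited table carry identifiers and no names, so the alleles could not be checked through their own genes and results are given by identifier. An identifier such as Ntab19g019570-1.1 holds an ID group, here 19, and a serial number. Neighbours are neighbours in that order, and no source used here says that this order is chromosomal.

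The K326 libraries held 36.1 M to 71.8 M counts and the nic1 nic2 myc2a libraries 32.7 M to 34.4 M. K326 replicate 2 was the library with 71.8 M. Levels are counts relative to the scaled total of their library (CPM), without correction for gene length, so they compare 1 gene model between libraries and not gene models with each other. Errors of levels are SD over libraries, with n = 4 for K326 and nic1 nic2 myc2a, 3 for nic1 nic2 and 5 for myc2a. Errors of log2 fold changes are SE worked back from edgeR's quasi-likelihood test. Each is the absolute log2 fold change divided by the square root of the F value, so they are approximate. The number of gene models at 1 CPM or more was 36974.5 ± 202 in K326 and 36756 ± 348 in nic1 nic2 myc2a, a difference of -218.5 (two-sided exact permutation p = 0.343, smallest possible 0.0286). The 100 most abundant gene models took 9.35 ± 0.377% of counts in K326 and 9.01 ± 0.460% in nic1 nic2 myc2a (exact permutation p = 0.286).

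Few gene models passed the test, and the falls were much deeper than the rises. Of 63697 gene models, 43009 passed the filter on low counts, and edgeR's quasi-likelihood test called 127 of them at a Benjamini-Hochberg adjusted p of 0.05, which is 0.295% of those tested. They were 49 gene models higher in nic1 nic2 myc2a (0.114%) and 78 lower (0.181%). The 78 falls had a median log2 fold change of -2.69, or -2.64 with the 8 gene models that had no counts in nic1 nic2 myc2a set at their bound, and 43 of them were over 4-fold. The 49 rises had a median of 1.11, and 8 of them were over 4-fold. Over all gene models tested the median was -0.01. At an unadjusted p under 0.05 there were 2946 higher and 3118 lower. The 4 K326 and 4 nic1 nic2 myc2a libraries did not overlap for any of the 127, as for 11.4% of all gene models tested (6.13% higher and 5.3% lower).

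The size of the call set was not stable. It fell to 67 without K326 replicate 1, to 75 without K326 replicate 2, to 75 without nic1 nic2 myc2a replicate 2 and to 73 without nic1 nic2 myc2a replicate 4, and rose to 427 without nic1 nic2 myc2a replicate 3. It was also moved by libraries of the partial genotypes, which enter the estimate of the spread and the filter on low counts, to 273 without myc2a replicate 1 and to 201 without nic1 nic2 replicate 3. Scaling by library size alone gave 78 higher and 72 lower, the fit to the 8 libraries alone called 526 gene models and DESeq2 called 987. The falls were the steadier side: leaving out 1 library at a time, 49 to 78 of the 78 falls and 16 to 49 of the 49 rises were called again.

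The calls were not spread evenly over levels. Among gene models with a mean over 100 CPM in the 8 libraries, 18 were lower and 1 higher of 1560 tested, or 1.22%. Between 10 and 100 CPM, 40 were lower and 30 higher of 19330 (0.362%). Between 1 and 10 CPM, 14 were lower and 18 higher of 16382 (0.195%), and under 1 CPM 6 were lower and 0 higher of 5737 (0.105%). The median SE of a log2 fold change was 0.88 under 1 CPM and 0.16 both between 10 and 100 CPM and over 100 CPM, so changes of low gene models were less detectable. The 95% interval of the log2 fold change, built from these approximate SE, lay within 2-fold either way for 28035 gene models (65.2%). It excluded a 4-fold change for 37534 (87.3%).

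**Figure D1:**
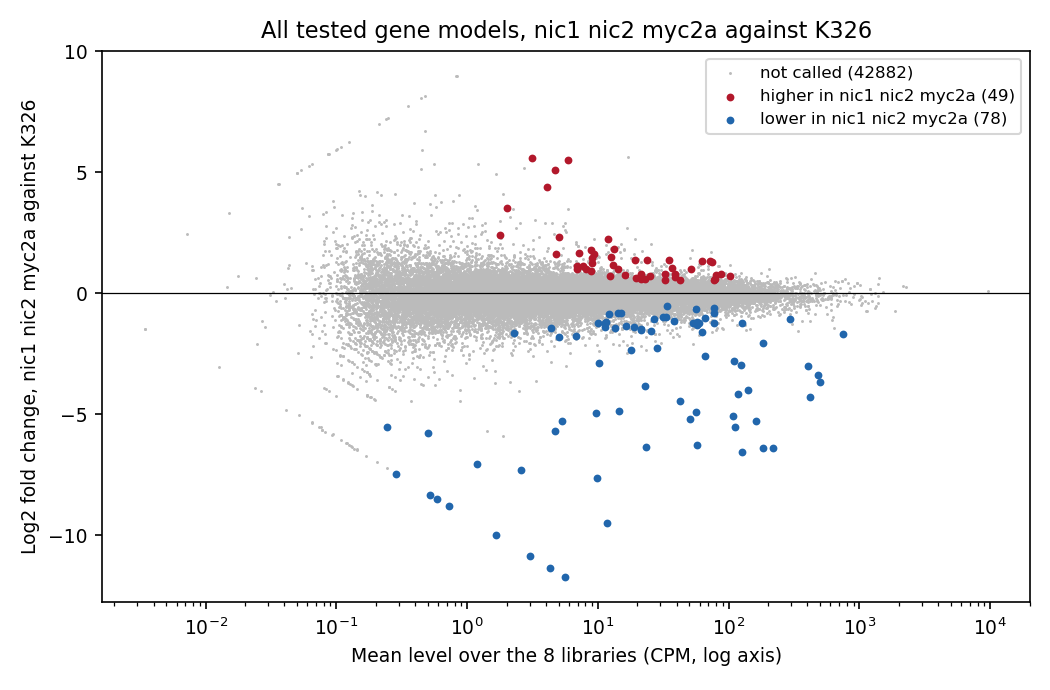
Log2 fold change of nic1 nic2 myc2a against K326 (vertical axis) by mean CPM over the 8 libraries (horizontal, log axis) for 43009 gene models, with the 49 called higher in red and the 78 called lower in blue. The deep falls include abundant gene models, while the rises over 4-fold lie at low and middle levels. The lines of points at low levels on both sides are gene models without counts in 1 genotype.

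As the plot of fold change by level shows, deep falls occurred at every level, and the 8 rises over 4-fold had K326 means of at most 4.17 CPM. Summed over the 78 falls, K326 replicates 1, 2, 3 and 4 held 8267, 18573, 7788 and 6373 CPM, and nic1 nic2 myc2a replicates 1, 2, 3 and 4 held 2108, 1600, 1935 and 1598 CPM. The groups did not overlap, and K326 replicate 2 was far above every other library. The 49 rises summed to 897 ± 46.7 CPM in K326 and 1747 ± 154 CPM in nic1 nic2 myc2a, again without overlap. The members of both sums were chosen on these libraries, so the sums describe their size and are no test.

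**Figure D2:**
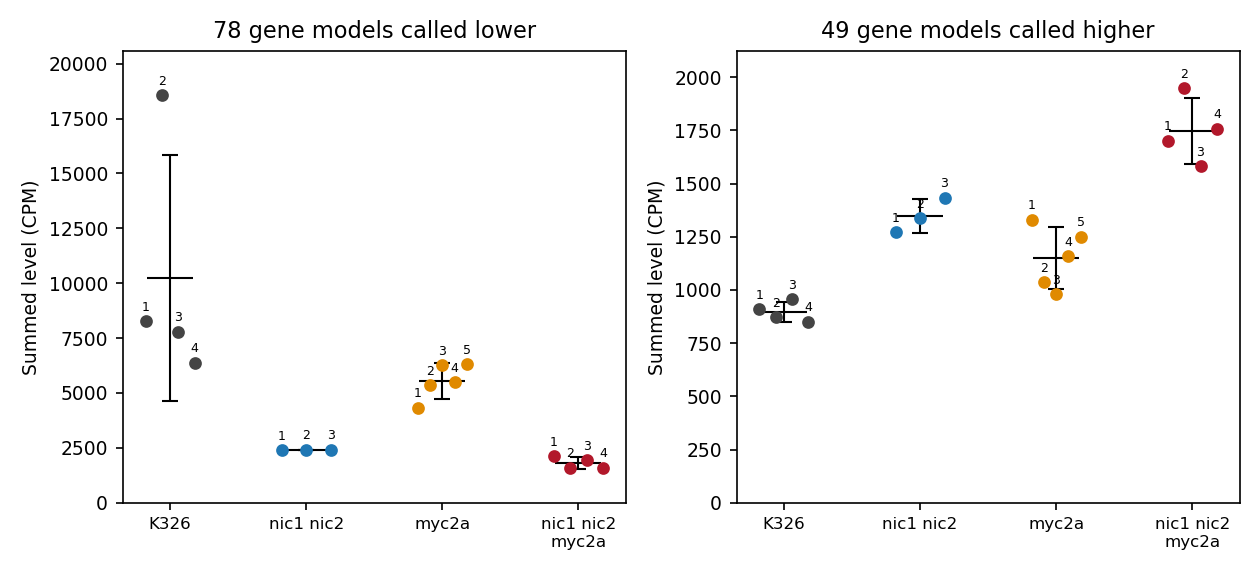
Summed CPM of the 78 gene models called lower (left) and the 49 called higher (right) in nic1 nic2 myc2a against K326, per library, with replicate numbers at the points and mean ± SD as bars. K326 replicate 2 stands at 18573 CPM in the left panel, and the nic1 nic2 libraries lie near those of nic1 nic2 myc2a there.

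One group of falls consisted of gene models that were abundant in K326 and kept a low level in nic1 nic2 myc2a. There were 27 falls over 4-fold whose K326 mean reached 2 CPM and which were not nearly absent in nic1 nic2 myc2a, a group delimited after the values were seen. They lay in 15 ID groups, had K326 means of 18.0 to 923 CPM and stood in nic1 nic2 myc2a at a median of 5.18% of K326 (1.07 to 24.4%). Without K326 replicate 2, the median was 7.66% (2.17 to 34.3%). The following are members of this group that had the highest K326 means or the deepest falls.

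Ntab06g021890-1.1 was at 752, 1609, 750.1 and 581 CPM in the K326 libraries and at 94.4, 67.9, 76.1 and 52 CPM in those of nic1 nic2 myc2a. K326 replicate 2 was the highest, and the lowest K326 library was still far above every nic1 nic2 myc2a library. The log2 fold change was -3.67 ± 0.30 (edgeR adjusted p = 2.95e-06). Ntab04g010910-1.1 was at 612, 1573, 555 and 452 CPM in K326 and at 50.7, 36.1, 45.2 and 33.5 CPM in nic1 nic2 myc2a. It had the same shape, with K326 replicate 2 on top and no overlap, and its log2 fold change was -4.27 ± 0.35 (edgeR adjusted p = 3.36e-06). Ntab12g001120-1.1, with 563, 2003, 572 and 378 CPM in K326, fell to 93.5, 81.6, 93.3 and 67.1 CPM. Here K326 replicate 2 was far above the other K326 libraries, and the log2 fold change was -3.39 ± 0.45 (edgeR adjusted p = 0.00121).

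Ntab24g000460-1.1 fell from 475, 1230.4, 676 and 509 CPM in K326 to 96.7, 66.1, 98.9 and 97.2 CPM. The 3 nic1 nic2 myc2a libraries other than replicate 2 were nearly level, and the log2 fold change was -3.01 ± 0.30 (edgeR adjusted p = 4.02e-05). Ntab10g002480-1.1 lay outside the group. It had the highest K326 mean of all called falls and a smaller fold, and it fell from 897, 1793, 1010.2 and 818 CPM to 447, 281, 350 and 351 CPM, a log2 change of -1.66 ± 0.22 (edgeR adjusted p = 0.00121).

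The deepest falls of this group were from high K326 levels to a few CPM. Ntab08g023550-1.1 was at 277, 1112, 211 and 129 CPM in K326 and at 6.31, 4.24, 5.65 and 4.25 CPM in nic1 nic2 myc2a. The K326 libraries differed widely among themselves and the nic1 nic2 myc2a libraries did not, and the log2 fold change was -6.40 ± 0.61 (edgeR adjusted p = 2.42e-05). Ntab05g006320-1.1 was at 157, 647, 120.4 and 68.3 CPM in K326 and at 2.80, 1.92, 4.42 and 1.48 CPM in nic1 nic2 myc2a, a log2 change of -6.55 ± 0.69 (edgeR adjusted p = 8.24e-05). Its neighbour Ntab05g006300-1.1 fell from 46.0 ± 40.8 to 0.569 ± 0.456 CPM (log2 change -6.33 ± 0.77, edgeR adjusted p = 0.000395), a call that limma-voom did not make, either plainly (adjusted p = 0.136) or with quality weights per library (0.063).

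K326 replicate 2 marked this group. It was the highest of the 4 K326 libraries for 24 of the 27 gene models and for 39 of all 78 falls, against 25.7% of all gene models tested. For the 27, its level divided by the mean of the other 3 K326 libraries had a median of 3.19 (0.750 to 8.31), where the median over all tested was 1.00. The summed level of the 27 was 5237, 14468, 4788 and 3674 CPM in K326. In nic1 nic2 myc2a it was 677, 452, 594 and 390.3 CPM. The lowest K326 library was above the highest nic1 nic2 myc2a library, but the 27 were chosen on these libraries, so this is no test. K326 replicate 2 is also the deepest library. With its counts thinned to 34.4 M, 63 of the 65 gene models followed under alternatives kept their call and 2 lost it. Thinning lowers depth and leaves the expected CPM as it was, so it cannot address the high levels of this library. With K326 replicate 2 left out, 52 of the 65 kept their call and 13 lost it. The part of its depth in these levels was not tested.

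The second group of falls was nearly absent from nic1 nic2 myc2a. Of the 78 falls, 16 had a mean CPM in K326 at least 16 times that in nic1 nic2 myc2a and stayed below 0.5 CPM in each of the 4 libraries, and 8 of these had no count in any of the 4. For gene models without counts the mean is 0, and the bounds given for them below, at 3 counts per library, can be under 16-fold. Their K326 means ran from 0.480 to 23.6 CPM. ID group 19 held 7 of them and ID group 7 held 4. A level of 0 in a nic1 nic2 myc2a library allows up to 0.0885 CPM, which is 3 counts in a library of mean depth, for counting error only.

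Ntab19g019570-1.1 was at 8.60, 9.13, 9.53 and 7.10 CPM in K326 and had 0 counts in the 4 nic1 nic2 myc2a libraries, against 1569 counts in K326. It was at least 97.0-fold lower, and 8.61 ± 0.867 CPM in nic1 nic2 and 8.84 ± 0.722 CPM in myc2a lay at the K326 level. Ntab19g019550-1.1, with 13.7, 10.9, 7.98 and 12.1 CPM in K326, also had 0 counts and was at least 126-fold lower. Both calls had small adjusted p-values in edgeR (3.2e-10 and 1.26e-07).

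These gene models stood in a neighbourhood of 7 called falls, from Ntab19g019530-1.1 to Ntab19g019610-1.1. The other 3 nearly absent members besides Ntab19g019570-1.1 and Ntab19g019550-1.1 were Ntab19g019530-1.1, Ntab19g019590-1.1 and Ntab19g019610-1.1. Ntab19g019590-1.1 fell from 26.4, 21.1, 21.9 and 24.8 CPM to 0, 0, 0 and 0.121 CPM. Ntab19g019610-1.1 fell from 17.2, 17.7, 22.7 and 20.9 CPM to 0, 0.0573, 0 and 0.332 CPM. A few counts thus remained in single libraries. Ntab19g019530-1.1, at 1.04 ± 0.307 CPM in K326 and without counts in nic1 nic2 myc2a, was at least 11.8-fold lower (edgeR adjusted p = 0.00106).

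A pair of members between them was low but not absent. Ntab19g019580-1.1 was at 85.7, 83.6, 75.6 and 79.0 CPM in K326 and at 4.62, 3.90, 3.60 and 2.56 CPM in nic1 nic2 myc2a (log2 fold change -4.46 ± 0.15, edgeR adjusted p = 1.87e-11). Ntab19g019560-1.1 was at 41.4, 41.5, 40.9 and 48.4 CPM in K326 and at 2.42, 2.84, 4.09 and 2.87 CPM in nic1 nic2 myc2a (log2 fold change -3.82 ± 0.16, edgeR adjusted p = 2.64e-10). In both, the spread within each genotype was small beside the difference. The remaining places inside the neighbourhood, Ntab19g019540-1.1 and Ntab19g019600-1.1, had 0 counts in both genotypes.

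The neighbourhood ended sharply on 1 side. The gene model before it, Ntab19g019520-1.1, was at 41.5 ± 4.03 CPM in K326 and 48.2 ± 2.02 CPM in nic1 nic2 myc2a, and was not called (edgeR adjusted p = 0.479). Ntab19g019500-1.1, further out, was at 12.3 ± 1.5 and 16.8 ± 1.75 CPM (edgeR adjusted p = 0.246). After it, Ntab19g019620-1.1 was near 0 in both genotypes, at 0.0196 ± 0.0244 and 0.0299 ± 0.0427 CPM, and the next places had 0 counts, so its end on that side cannot be placed.

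In ID group 7, Ntab07g010200-1.1 had no other called gene model within 5 places. It was at 6.22, 6.65, 5.61 and 5.77 CPM in K326 and had 0 counts in nic1 nic2 myc2a, at least 68.5-fold lower (edgeR adjusted p = 3.94e-08). It was at 6.78 ± 0.646 CPM in nic1 nic2 and 6.13 ± 1.89 CPM in myc2a. The next gene model, Ntab07g010210-1.1, was at 21.1 ± 2.77 CPM in K326 and 20.4 ± 0.805 CPM in nic1 nic2 myc2a, within the spread of the libraries. The one before, Ntab07g010190-1.1, was lower in nic1 nic2 myc2a (0.345 ± 0.216 CPM) than in K326 (0.794 ± 0.150 CPM) but not called (edgeR adjusted p = 0.525).

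Another 6 of the 16 were under 0.5 CPM in every nic1 nic2 library as well. Ntab07g012920-1.1 was at 4.12, 4.10, 2.51 and 2.62 CPM in K326, had 0 counts in nic1 nic2 myc2a and in nic1 nic2, and was at 1.49 ± 0.637 CPM in myc2a. It was at least 37.7-fold lower than K326 in nic1 nic2 myc2a (edgeR adjusted p = 0.000164). Its neighbour Ntab07g012960-1.1 was at 3.00, 2.61, 1.83 and 2.09 CPM in K326, at 0.0584, 0, 0 and 0 CPM in nic1 nic2 myc2a, at 0 in nic1 nic2 and at 2.59 ± 0.685 CPM in myc2a. In both gene models the genotypes thus parted by whether they carried nic1 nic2. Between this pair, Ntab07g012940-1.1 was at 0.273 ± 0.230 CPM in K326 and had 0 counts in both genotypes with nic1 nic2. The flanking Ntab07g012910-1.1 (25.0 ± 3.92 and 28.5 ± 6.12 CPM) and Ntab07g012970-1.1 (10.4 ± 1.62 and 11.7 ± 1.84 CPM) were not called.

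The remaining 4 with low nic1 nic2 levels were Ntab16g016700-1.1, Ntab19g030530-1.1, Ntab19g030590-1.1 and Ntab07g009030-1.1. Ntab16g016700-1.1 was at 1.45, 1.41, 1.52 and 1.41 CPM in K326, had 0 counts in nic1 nic2 myc2a and nic1 nic2, and was at 1.77 ± 0.724 CPM in myc2a (at least 16.4-fold lower than K326, edgeR adjusted p = 0.000586). Ntab19g030530-1.1 was at 0.572 ± 0.317 CPM in K326 and had 0 counts in nic1 nic2 myc2a (at least 6.46-fold lower, edgeR adjusted p = 0.0212). Ntab19g030590-1.1 was at 0.985 ± 0.628 CPM in K326 and at 0, 0, 0 and 0.0603 CPM in nic1 nic2 myc2a (edgeR adjusted p = 0.0269). Both of these had 0 counts in nic1 nic2, and in myc2a they were at 0.316 ± 0.104 and 0.639 ± 0.270 CPM. Among their neighbours, Ntab19g030560-1.1, Ntab19g030580-1.1 and Ntab19g030620-1.1 were not called or had too few counts to be tested. These neighbours had some counts in K326 and myc2a and 0 in both genotypes with nic1 nic2.

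Some calls at such low levels were fragile and others were not. Those of Ntab07g012920-1.1 and Ntab07g012960-1.1 were lost in 0 of 27 alternatives, and that of Ntab16g016700-1.1 in 1 of 27. Ntab19g030530-1.1 was lost without K326 replicates 2 (edgeR adjusted p = 0.0529), 3 (0.0574) or 4 (0.0536) or without triple recessive replicates 1 (0.0523), 2 (0.0607) or 4 (0.0623). Ntab19g030590-1.1 was lost without K326 replicates 1 (edgeR adjusted p = 0.0886) or 3 (0.0617) or without triple recessive replicates 1 (0.0769) or 2 (0.11), and by limma-voom (adjusted p = 0.0722). Ntab07g009030-1.1 was at 5.02, 13.7, 0.762 and 1.21 CPM in K326 and at 0, 0.115, 0 and 0 CPM in nic1 nic2 myc2a, so its K326 level rested on a pair of libraries. It was at 0.0977 ± 0.0915 CPM in nic1 nic2 and also low in myc2a, at 0.458 ± 0.535 CPM. Its call (edgeR adjusted p = 0.0269) was lost without K326 replicates 1 (0.0668) or 2 (0.122) or without triple recessive replicates 1 (0.083), 2 (0.0792) or 4 (0.114), and by limma-voom (0.243), also with quality weights per library (0.162).

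**Figure D3:**
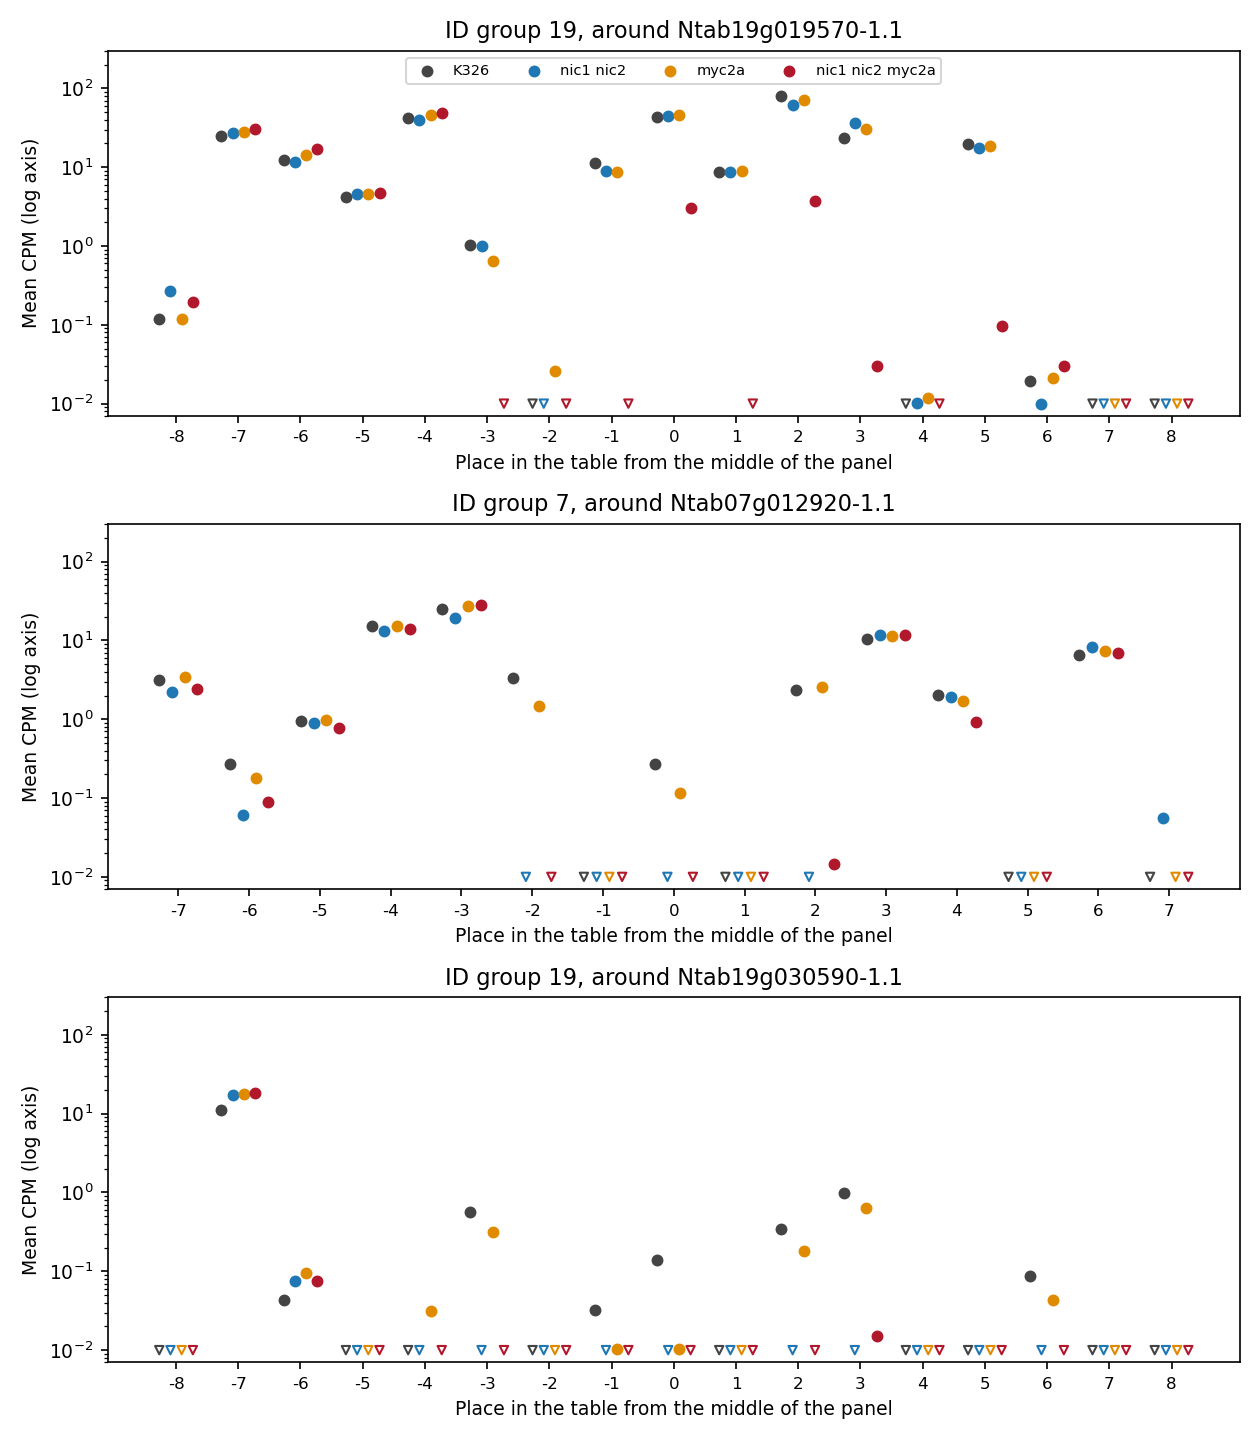
Mean CPM (log axis) of neighbouring gene models in the order of identifiers, for 3 places with nearly absent gene models, in the 4 genotypes. Open triangles at the bottom are genotypes at 0. In the top panel nic1 nic2 myc2a alone drops, from Ntab19g019530-1.1 at place -3 on. In the middle and lower panels nic1 nic2 and nic1 nic2 myc2a are at or near 0 together for the nearly absent gene models. Flanking gene models such as Ntab07g012910-1.1 and Ntab19g030490-1.1 keep their counts in both.

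Of the other 4 nearly absent gene models, Ntab03g023410-1.1 and Ntab05g011910-1.1 were called lower than both partial genotypes. Ntab03g023410-1.1 was at 0.764, 1.44, 1.30 and 1.18 CPM in K326 and had 0 counts in nic1 nic2 myc2a (at least 13.2-fold lower, edgeR adjusted p = 0.00036). It was at 0.518 ± 0.151 CPM in nic1 nic2 and 1.45 ± 0.633 CPM in myc2a. Ntab05g011910-1.1 fell from 8.68, 7.35, 9.14 and 11.7 CPM to 0.467, 0, 0.0601 and 0.181 CPM (log2 change -5.67 ± 0.78, edgeR adjusted p = 0.0014; limma-voom adjusted p = 0.136). It was at intermediate levels in nic1 nic2 (5.80 ± 2.49 CPM) and myc2a (4.83 ± 3.72 CPM).

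Ntab12g000150-1.1 was at 16.3, 2.94, 8.63 and 13.2 CPM in K326 and at 0.497, 0.0573, 0.300 and 0.211 CPM in nic1 nic2 myc2a. Here K326 replicate 2 was the lowest of its genotype, and the log2 fold change was -5.25 ± 0.80 (edgeR adjusted p = 0.00419, limma-voom 0.159 and 0.084 with sample quality weights). Its levels in nic1 nic2 (2.14 ± 0.522 CPM) and myc2a (1.10 ± 1.02 CPM) were between those of K326 and nic1 nic2 myc2a. Ntab08g007090-1.1 was the lowest of the 16 at 0.480 ± 0.417 CPM in K326, with 0.503 ± 0.346 CPM in nic1 nic2 and 0.127 ± 0.0453 CPM in myc2a. It was called at an edgeR adjusted p of 0.0478 and lost in 13 of the 22 alternatives that tested it. Those included leaving out K326 replicate 1 (adjusted p = 0.165), 2 (0.122) or 3 (0.05), nic1 nic2 replicate 1 (0.0663), myc2a replicate 2 (0.0668), 3 (0.0615) or 4 (0.0646) and nic1 nic2 myc2a replicate 1 (0.106), 2 (0.177) or 4 (0.166).

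The other falls were under 4-fold. Ntab17g022870-1.1, chosen after its values were seen for its small spread, was at 31.1, 31.4, 31.3 and 32.1 CPM in K326 and at 10.7, 11.1, 9.01 and 13.1 CPM in nic1 nic2 myc2a. Its K326 libraries were nearly identical in level, and the log2 fold change was -1.52 ± 0.11 (edgeR adjusted p = 7.93e-07). It was at 25.0 ± 1.76 CPM in nic1 nic2 and 30.9 ± 1.85 CPM in myc2a, so nic1 nic2 myc2a was below all of the other genotypes.

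Neighbouring falls occurred in 9 neighbourhoods of 26 gene models, counted as called gene models within 5 places of another called in the same direction. In ID group 12, Ntab12g015220-1.1, Ntab12g015230-1.1 and Ntab12g015240-1.1 fell by 2.97, 5.08 and 4.91 on the log2 scale, and Ntab12g015230-1.1 went from 192, 425, 82.8 and 140.3 CPM to 9.29, 1.86, 12.6 and 1.03 CPM. Its nic1 nic2 myc2a replicates 2 and 4 were lower than replicates 1 and 3, and so were those of Ntab12g015240-1.1 (6.40, 1.43, 5.83 and 0.724 CPM). In ID group 16, Ntab16g014290-1.1, Ntab16g014300-1.1 and Ntab16g014330-1.1 fell by 5.20, 4.17 and 3.98. In ID group 15, Ntab15g006100-1.1 and Ntab15g006110-1.1 fell by 5.53 and 5.29, and Ntab15g006110-1.1 went from 316 ± 268 to 8.08 ± 3.29 CPM.

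Some neighbours may share reads. The counts of Ntab19g031570-1.1 divided by those of Ntab19g031560-1.1 were 1.28 to 1.31 in all 16 libraries, those of Ntab19g031580-1.1 by Ntab19g031570-1.1 were 0.687 to 0.707, and those of Ntab01g025860-1.1 by Ntab01g025850-1.1 were 1.03 to 1.08. How reads that fit several gene models were counted is not given in the sources used here, so the separate values of these gene models are uncertain. Ntab19g031570-1.1 was at 120.3, 78.6, 127 and 104 CPM in K326 and at 58.9, 33.1, 45.8 and 46.5 CPM in nic1 nic2 myc2a, without overlap (log2 fold change -1.22 ± 0.18, edgeR adjusted p = 0.00253). In contrast, Ntab12g015230-1.1 divided by Ntab12g015220-1.1 ran from 0.0623 to 1.24.

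The largest rises started from levels near 0 in K326. Ntab19g031540-1.1, beside the 3 falls of ID group 19 just described, was at 0.109, 0.389, 0.282 and 0.151 CPM in K326 and at 7.83, 12.7, 14.3 and 11.1 CPM in nic1 nic2 myc2a. The groups were far apart, and the log2 fold change was 5.53 ± 0.45 (edgeR adjusted p = 2.95e-06). It was at 12.8 ± 0.986 CPM in nic1 nic2 and 0.128 ± 0.0950 CPM in myc2a, so the genotypes parted by nic1 nic2, in the direction opposite to its neighbours.

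In ID group 6, the neighbours Ntab06g019810-1.1 and Ntab06g019820-1.1 rose together. Ntab06g019810-1.1 was at 0.601, 0.274, 0.169 and 0.428 CPM in K326 and at 3.39, 6.04, 10.0 and 11.5 CPM in nic1 nic2 myc2a (log2 fold change 4.40 ± 0.66, edgeR adjusted p = 0.00314). Ntab06g019820-1.1 was at 0.191, 0.101, 0.0282 and 0.176 CPM in K326 and at 3.56, 2.55, 7.99 and 10.5 CPM in nic1 nic2 myc2a (log2 fold change 5.61 ± 0.90, edgeR adjusted p = 0.00697). In both, the nic1 nic2 myc2a libraries differed widely among themselves and stayed above K326. Their levels in myc2a were 6.82 ± 5.17 and 4.71 ± 3.98 CPM, and in nic1 nic2 0.489 ± 0.305 and 0.462 ± 0.410 CPM. Under limma-voom both calls were lost (adjusted p = 0.127 and 0.157), also with sample quality weights (0.0672 and 0.0921).

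Ntab01g007090-1.1 rose from 0.0546, 0.518, 0.113 and 0.554 CPM to 3.27, 4.81, 3.72 and 3.20 CPM (log2 change 3.54 ± 0.63, edgeR adjusted p = 0.019), with 1.75 ± 0.5 CPM in nic1 nic2 and 0.0212 ± 0.0291 CPM in myc2a. Its nic1 nic2 myc2a libraries were alike and those of K326 were not, and the call was lost without K326 replicates 1 (edgeR adjusted p = 0.055) or 3 (0.0617) or without triple recessive replicate 2 (0.0786). Ntab20g010800-1.1 rose by 5.09 ± 1.04 on the log2 scale, from 0.231 ± 0.280 to 9.10 ± 4.37 CPM, at an edgeR adjusted p of 0.0478. The call was lost in 12 of 27 alternatives, among them those without K326 replicates 1 (0.178), 2 (0.07), 3 (0.105) or 4 (0.145), myc2a replicates 2 (0.0659), 3 (0.0615) or 4 (0.0654) and nic1 nic2 myc2a replicates 1 (0.0531), 2 (0.134) or 4 (0.115).

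Among rises from a measurable K326 level, Ntab20g021370-1.1 was the firmest of those named here. It was at 5.49, 4.22, 3.13 and 3.83 CPM in K326 and at 21.0, 24.3, 17.4 and 16.0 CPM in nic1 nic2 myc2a (log2 fold change 2.24 ± 0.22, edgeR adjusted p = 2.77e-05). It was also high in nic1 nic2 (13.3 ± 3.95 CPM) and in myc2a (15.4 ± 2.27 CPM). Ntab03g001370-1.1 rose from 1.64 ± 0.922 to 8.47 ± 3.01 CPM (log2 change 2.35 ± 0.37, edgeR adjusted p = 0.00604) and Ntab03g006010-1.1 from 0.557 ± 0.176 to 3.00 ± 0.816 CPM (2.41 ± 0.41, edgeR adjusted p = 0.0115). In both, nic1 nic2 (6.25 ± 1.35 and 2.48 ± 0.629 CPM) and myc2a (4.07 ± 1.21 and 1.5 ± 0.623 CPM) lay between K326 and nic1 nic2 myc2a. The call of Ntab03g006010-1.1 was lost without K326 replicates 1 (edgeR adjusted p = 0.0632) or 4 (0.0536).

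Ntab07g009270-1.1 was at 4.26, 4.39, 4.40 and 2.69 CPM in K326 and at 12.5, 15.5, 10.3 and 17.0 CPM in nic1 nic2 myc2a (log2 fold change 1.81 ± 0.26, edgeR adjusted p = 0.00228). K326 replicate 4 was below the other K326 libraries, and myc2a, at 3.91 ± 1.36 CPM, was at the K326 level. In ID group 5, Ntab05g001120-1.1 and Ntab05g001130-1.1 rose while Ntab05g001160-1.1, noticed after its values were seen, fell. Ntab05g001130-1.1 was at 6.09, 4.05, 6.15 and 7.13 CPM in K326 and at 21.7, 25.3, 16.2 and 20.2 CPM in nic1 nic2 myc2a (log2 fold change 1.84 ± 0.23, edgeR adjusted p = 0.000595). Ntab05g001160-1.1 was at 18.4, 26.2, 25.1 and 24.1 CPM in K326 and at 9.43, 9.19, 11.5 and 6.58 CPM in nic1 nic2 myc2a (log2 fold change -1.35 ± 0.21, edgeR adjusted p = 0.00596). For both gene models, nic1 nic2 was near K326 (4.68 ± 0.653 and 25.9 ± 1.63 CPM) and myc2a was between K326 and nic1 nic2 myc2a (15.2 ± 4.19 and 13.4 ± 3.99 CPM).

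Most rises of abundant gene models were under 2-fold or close to it. Of the 49 rises, 25 had a K326 mean of at least 10 CPM, and 17 of these were 2-fold or less. Ntab16g016960-1.1 was at 44.0, 43.5, 39.8 and 36.0 CPM in K326 and at 135, 85.0, 80.0 and 111 CPM in nic1 nic2 myc2a (log2 fold change 1.33 ± 0.22, edgeR adjusted p = 0.00922). Its neighbour Ntab16g016940-1.1 rose by the same log2 value, 1.33 ± 0.18 (edgeR adjusted p = 0.00166), with nic1 nic2 myc2a replicates 1 and 4 highest in both. Ntab09g019030-1.1 had the highest nic1 nic2 myc2a level of the rises and went from 81.5, 69.0, 86.0 and 69.8 CPM to 128, 121, 122 and 136 CPM (log2 change 0.73 ± 0.14, edgeR adjusted p = 0.0315).

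The calls of some small rises were lost when single libraries were left out. Ntab09g019030-1.1 was lost without K326 replicates 1 (edgeR adjusted p = 0.0804), 2 (0.126) or 4 (0.119) or without triple recessive replicates 1 (0.0705), 2 (0.0704) or 4 (0.114). Ntab24g016810-1.1 (59.2 ± 7.74 to 100.3 ± 14.7 CPM, edgeR adjusted p = 0.0186) was lost without K326 replicates 1 (0.0804), 2 (0.0895) or 4 (0.0787) or without triple recessive replicate 2 (0.0786). Ntab22g035510-1.1 (63.8 ± 8.07 to 110.0 ± 24.7 CPM, edgeR adjusted p = 0.0433) and Ntab23g003790-1.1 (42.9 ± 10.5 to 106 ± 41.0 CPM, edgeR adjusted p = 0.0486) were lost in 10 and 13 of 27 alternatives, with adjusted p of up to 0.173 and 0.182. For these last gene models every K326 library changed the call when left out, as did nic1 nic2 myc2a replicates 1 and 2 and nic1 nic2 replicates 1 and 2.

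**Figure D4:**
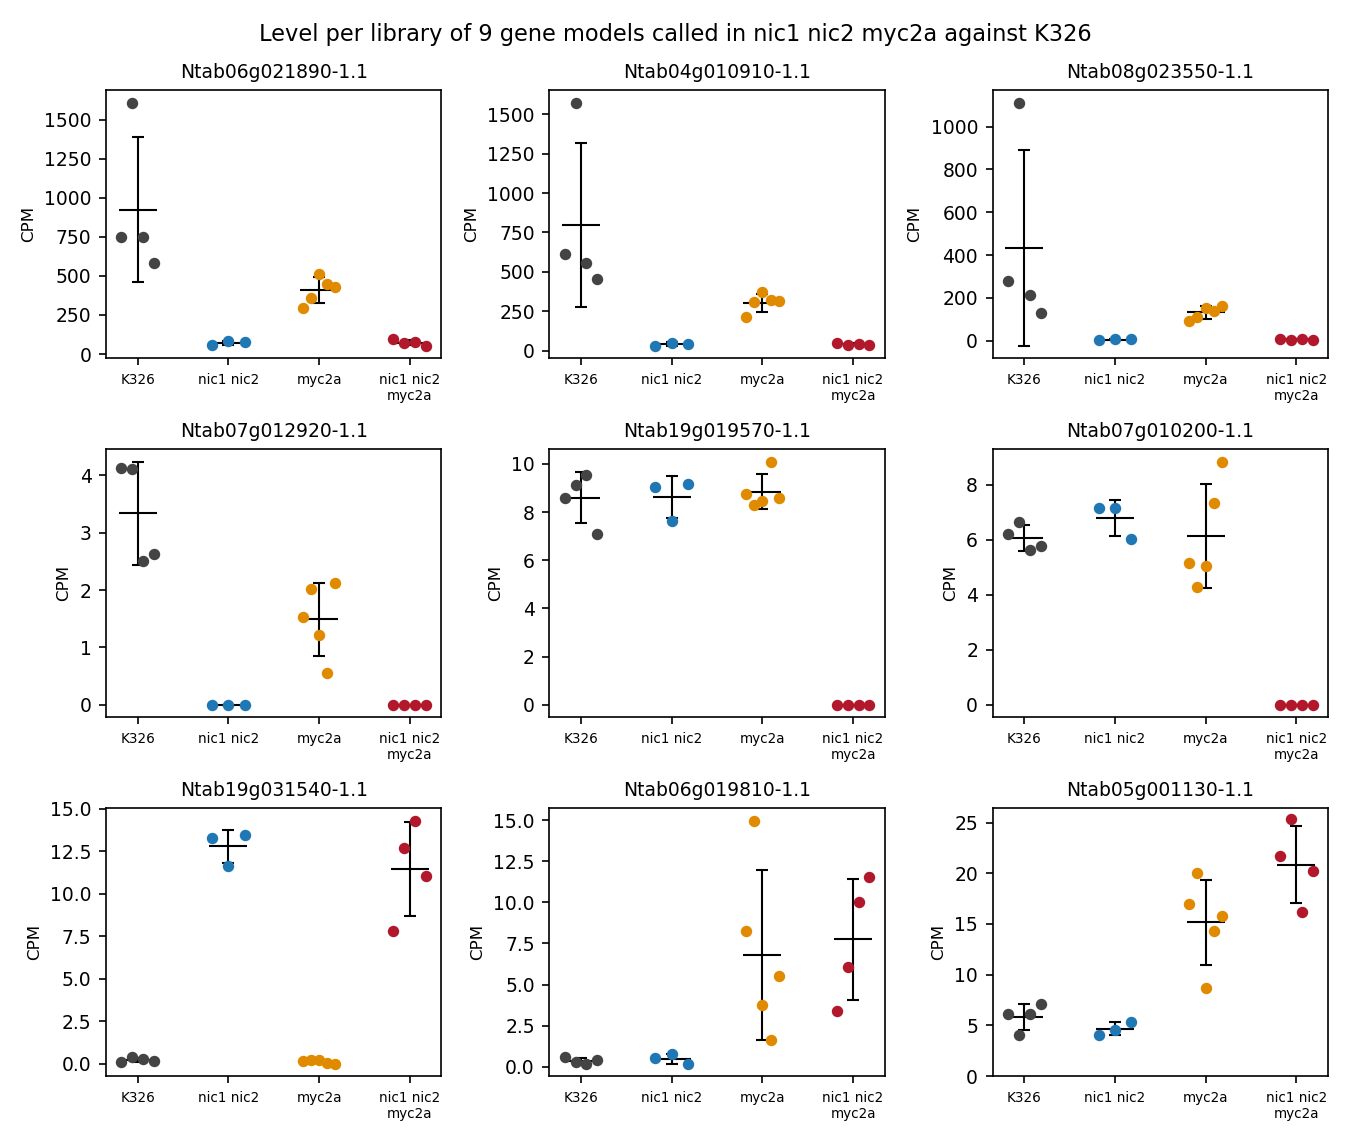
CPM per library of 9 called gene models in the 4 genotypes, with mean ± SD. The top row shows abundant falls with K326 replicate 2 highest, the middle row gene models at 0 in nic1 nic2 myc2a (Ntab07g012920-1.1 also at 0 in nic1 nic2), and the bottom row rises that are also high in nic1 nic2 (Ntab19g031540-1.1) or in myc2a (Ntab06g019810-1.1 and Ntab05g001130-1.1).

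The plot of named gene models by library shows that the 127 calls did not stand in 1 relation to the partial genotypes. In the same fit, 174 gene models (0.405% of those tested) were called between nic1 nic2 myc2a and nic1 nic2, 132 higher (0.307%) and 42 lower (0.0977%). Against myc2a, 154 were called (0.358%), 79 higher (0.184%) and 75 lower (0.174%). These comparisons share the nic1 nic2 myc2a libraries with the comparison against K326, on which the 127 were chosen, so the following are counts and values side by side. Of the 78 falls, 18 were also called lower than nic1 nic2, 50 lower than myc2a, 15 lower than both and 25 lower than neither. Of the 49 rises, 6 were also called higher than nic1 nic2, 8 higher than myc2a, 1 higher than both and 36 higher than neither. Leaving out 1 library at a time moved the falls called against myc2a between 27 and 63 and those against nic1 nic2 between 15 and 20. The rises ran from 5 to 25 against myc2a and from 2 to 8 against nic1 nic2.

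Most of the abundant falls were low in nic1 nic2 as well. For the 27 gene models of that group, the level in nic1 nic2 had a median of 6.69% of K326 (1.00 to 133%), and that in myc2a a median of 39.9% (17.2 to 106%), against 5.18% in nic1 nic2 myc2a. The K326 mean in these shares includes replicate 2, which raises it, so the falls in myc2a look deeper. Their summed level was 666 ± 89.1 CPM in nic1 nic2, 3064 ± 583 CPM in myc2a and 528 ± 131 CPM in nic1 nic2 myc2a. In K326 replicates 1, 3 and 4 it was 5237, 4788 and 3674 CPM. The myc2a libraries held 2230, 2737, 3528, 3196 and 3632 CPM, the highest of them close to K326 replicate 4. Against nic1 nic2, 3 of the 27 were called, Ntab19g019560-1.1, Ntab19g019580-1.1 and Ntab07g016500-1.1, and 4 had an unadjusted p under 0.05. Ntab19g019560-1.1 was at 44.5 ± 5.90 CPM in nic1 nic2 and 43.0 ± 3.55 CPM in K326. Ntab19g019580-1.1 was at 61.4 ± 4.17 CPM in nic1 nic2 and 81.0 ± 4.52 CPM in K326. Against myc2a, 24 of the 27 were called.

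Single gene models show the pattern. Ntab06g021890-1.1 was at 72.6 ± 12.4 CPM in nic1 nic2 and 72.6 ± 17.6 CPM in nic1 nic2 myc2a, a log2 difference of 0.00 ± 0.29 (edgeR adjusted p = 1), and at 408 ± 83.3 CPM in myc2a. Ntab08g023550-1.1 was at 4.33 ± 1.97 CPM in nic1 nic2, 5.11 ± 1.04 CPM in nic1 nic2 myc2a (log2 difference 0.24 ± 0.56, edgeR adjusted p = 0.889) and 131 ± 29.3 CPM in myc2a. An SE of 0.56 leaves room for a difference of about 2-fold either way, and for a larger one upwards. Ntab07g016500-1.1 was 1 of the 3 called against nic1 nic2. It was at 39.6 ± 11.5 CPM in nic1 nic2, 26.2 ± 17.4 CPM in myc2a and 29.8 ± 6.97 CPM in K326. In nic1 nic2 myc2a it fell to 5.85 ± 1.81 CPM (edgeR adjusted p = 0.0249 against K326). The call against K326 was lost without K326 replicates 1 (0.0741) or 3 (0.063) or without triple recessive replicates 1 (0.0769) or 4 (0.114), and by limma-voom (0.0853).

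The nearly absent gene models divided otherwise. Of the 16, 9 were called lower than nic1 nic2 and 8 of these also lower than myc2a. Under 0.5 CPM in every library were 6 of the 16 for nic1 nic2 and 2 for myc2a. All 7 called members of the neighbourhood around Ntab19g019570-1.1 were called lower than both partial genotypes. Ntab19g019580-1.1, for example, was at 61.4 ± 4.17 CPM in nic1 nic2 and 71.6 ± 4.02 CPM in myc2a, against 3.67 ± 0.851 CPM in nic1 nic2 myc2a (log2 differences of -4.06 ± 0.15 and -4.28 ± 0.15, edgeR adjusted p = 1.08e-10 and 2.49e-11). Effects of the 3 loci and other differences between these lines cannot be told apart.

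The 1 rise that was called against K326 and both partial genotypes was Ntab03g030050-1.1. It was at 24.3, 24.2, 24.5 and 23.1 CPM in K326 and at 47.5, 37.3, 40.2 and 41.5 CPM in nic1 nic2 myc2a (log2 fold change 0.79 ± 0.10, edgeR adjusted p = 0.000562). It was at 23.4 ± 0.657 CPM in nic1 nic2 and 23.2 ± 1.67 CPM in myc2a, level with K326. Its neighbour Ntab03g030030-1.1 rose from 6.08 ± 0.870 to 11.6 ± 1.31 CPM (log2 change 0.93 ± 0.19, edgeR adjusted p = 0.0425), a call lost in 12 of 27 alternatives, with each K326 library left out among them (adjusted p from 0.0639 to 0.144).

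**Figure D5:**
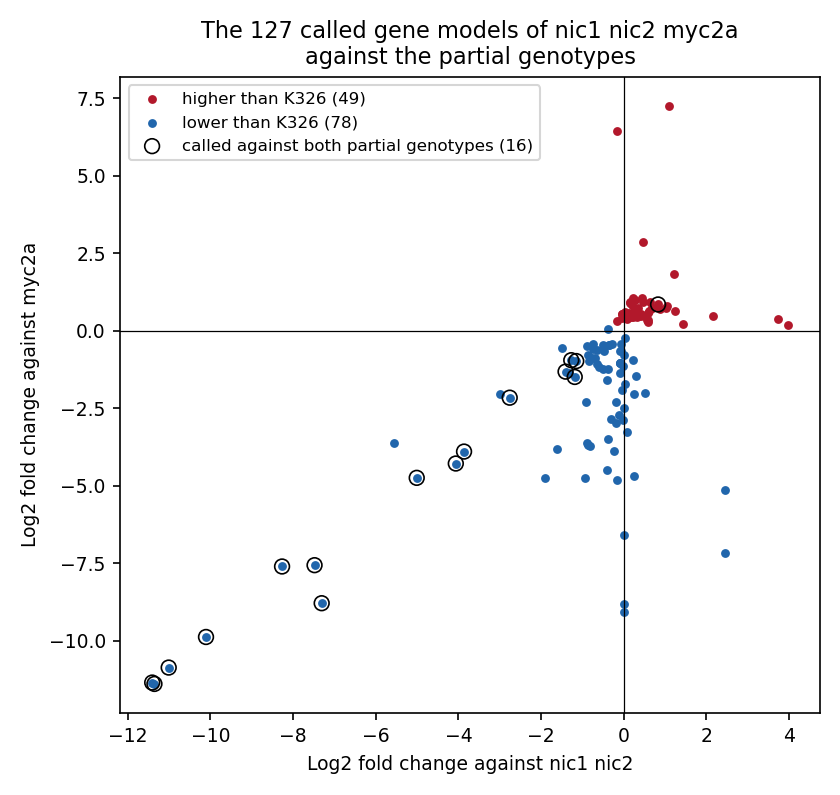
Log2 fold change of nic1 nic2 myc2a against nic1 nic2 (horizontal axis) and against myc2a (vertical axis) for the 127 gene models called against K326, rises in red and falls in blue. Circles mark the 16 gene models called against both partial genotypes, and many falls lie near 0 on the horizontal axis and well below 0 on the vertical one. Fitted values of gene models without counts depend on the prior count.

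In the plot against the partial genotypes, the falls had a median log2 difference of -0.45 from nic1 nic2 and -1.95 from myc2a, and the rises of 0.43 and 0.58, where the medians over all gene models tested were -0.01 and 0.00. Whether the difference of nic1 nic2 myc2a from K326 departed from the sum of the differences of nic1 nic2 and of myc2a, on the log2 scale, was tested in the same fit. Of all gene models, 101 departed (0.235%), 84 upwards (0.195%) and 17 downwards (0.0395%). Among the 127, 10 falls departed downwards, the 7 of the neighbourhood around Ntab19g019570-1.1 with Ntab07g010200-1.1, Ntab03g023410-1.1 and Ntab17g022870-1.1, and 1 rise departed upwards, Ntab03g030050-1.1. The departure was -1.16 for Ntab17g022870-1.1 (edgeR adjusted p = 0.00156) and 0.88 for Ntab03g030050-1.1.

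The 127 calls lay in most ID groups, 23 for the falls and 19 for the rises. ID group 19 held 20 of them among 2413 tested (0.829%), 5 higher and 15 lower, and ID group 7 held 10 among 2229 (0.449%). No long stretch of neighbours was shifted by as much as the single gene models. The running median of 51 neighbouring gene models, as the log2 ratio of nic1 nic2 myc2a to K326, lay between -0.25 in ID group 5 and 0.22 in ID group 20.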

How the data were processed

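The authors deposited a table of raw counts for 63697 gene models in 16 root libraries. RNA was purified with a Qiagen RNeasy kit and NEBNext Ultra Directional libraries were prepared from it, per the labels' protocols. FastQC, HISAT2 2.1.0, SAMtools and bedtools are named in the submitters' processing notes, while build, annotation and counting rules are not given in the sources used here. Between 59.7 and 65.6% of counts under 200 were even, so mates of a pair may have been counted separately. Columns were matched to samples by name, and the triple recessive columns write the genotype letters in another order than the titles. Of the identifiers, 0 matched the RefSeq gene table, so gene lists by name and sequences were not used here.

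The count model was edgeR 4.0.16 under R 4.3.3 (filterByExpr, TMM scaling, quasi-likelihood test, 12 residual degrees of freedom, 1 mean per genotype over all 16 libraries). P-values were adjusted by Benjamini-Hochberg over the 43009 gene models tested, at 0.05. CPM are counts relative to TMM-scaled totals. A fold against a genotype without counts is a bound with 3 counts per library. Single values per library were compared by exact permutation. Alternatives were run with DESeq2 1.42.0 and limma 3.58.1, other scalings and filters, halved counts, the 8 libraries alone, and each library left out. A thinned K326 replicate 2 was added after seeing the data. When 100 simulated 2-fold and 100 simulated 4-fold changes were placed among 43009 gene models, 43% and 77% were recovered for nic1 nic2 myc2a against K326, with 4% false calls. The simulated counts were drawn independently, with the spread fitted by the same model and no library set apart as K326 replicate 2 is. These rates hold for that setting and are no false call rate of the 127.

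Named gene models are, among those called, the 10 largest rises and 10 largest falls whose higher group reached 2 CPM and whose libraries did not overlap, the 5 most abundant of each direction, members of neighbourhoods, and the 6 largest called against all other genotypes. Others were picked with their values in view, as were the nearly absent gene models outside that rule. The comparison, the lists and this rule were chosen with earlier results of these data known.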

Additional observations from a re-analysis of the deposited data

Results flagged for a closer look

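Among 132 sets of 4 libraries of 1 genotype, 21 had a library far from the other 3 by Dixon's 95% criterion. For independent normal values, chance gives about 1 in 20 such sets. The sets here share libraries and some hold few counts, so that rate is no measure of an excess. K326 replicate 2 stood apart in 9 of them. Its total was 71.8 M counts and the summed level of the falls was 18573 CPM. Its single gene models were Ntab12g001120-1.1 (2003 CPM), Ntab06g021890-1.1 (1609 CPM), Ntab04g010910-1.1 (1573 CPM), Ntab08g023550-1.1 (1112 CPM), Ntab15g006110-1.1 (713 CPM), Ntab05g006320-1.1 (647 CPM) and Ntab16g014330-1.1 (564 CPM). All of these are falls in which K326 replicate 2 was the highest library. The counts of this library were thinned for the calls and fold changes only, and the part of its depth in these levels was not tested.

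K326 replicate 4 was low for Ntab07g009270-1.1 (2.69 CPM) and Ntab05g001120-1.1 (5.29 CPM) and high for Ntab19g019560-1.1 (48.4 CPM). Among the nic1 nic2 myc2a libraries, replicate 2 was low for Ntab24g000460-1.1 (66.1 CPM) and high for Ntab24g016810-1.1 (122 CPM), replicate 3 was high for Ntab15g006100-1.1 (8.26 CPM), and replicate 4 had the fewest gene models at 1 CPM or more (36236). Some libraries were flagged because they held a few counts where the others had 0. These were nic1 nic2 myc2a replicate 1 for Ntab07g012960-1.1 (0.0584 CPM), replicate 2 for Ntab07g009030-1.1 (0.115 CPM), replicate 3 for Ntab08g007090-1.1 (0.0300 CPM), and replicate 4 for Ntab19g019590-1.1 (0.121 CPM) and Ntab19g030590-1.1 (0.0603 CPM).

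For 11 of the 127 gene models, the log2 difference of nic1 nic2 myc2a from K326 departed from the sum of those of nic1 nic2 and myc2a in edgeR. In the neighbourhood of ID group 19 the departure was -7.55 for Ntab19g019530-1.1, -11.02 for Ntab19g019550-1.1, -3.95 for Ntab19g019560-1.1, -11.39 for Ntab19g019570-1.1, -3.89 for Ntab19g019580-1.1, -10.50 for Ntab19g019590-1.1 and -7.42 for Ntab19g019610-1.1. Elsewhere it was -11.02 for Ntab07g010200-1.1, -7.61 for Ntab03g023410-1.1, -1.16 for Ntab17g022870-1.1 and 0.88 for Ntab03g030050-1.1. Values of gene models without counts depend on the prior count and are no bounds.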

How the results depend on the processing

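Under 27 alternatives, 65 gene models gave 1743 values against K326, of which 1595 kept the call, 148 lost it and 0 changed sign. For 37 gene models no alternative lost the call. The count of 127 moved to 526 (286 higher, 240 lower) with the 8 libraries alone, 987 with DESeq2 (499 higher, 488 lower, 124 shared with the 127) and 1080 with limma-voom and sample quality weights (618 higher, 462 lower). It stayed between 124 and 150 under the other scalings, filters, halving, thinning and limma-voom. With 1 library left out it ran from 67 to 427. Against nic1 nic2 the count was 638 with DESeq2 and 126 to 291 with 1 library left out. Against myc2a it was 769 with DESeq2, 1220 with sample quality weights and 70 to 1132 with 1 library left out. Departures from the sum numbered 305 with DESeq2, 173 with sample quality weights and 76 to 344 with 1 library left out. For the share of counts, the difference was 0.111 percentage points for the 10 most abundant gene models (exact permutation p = 0.829), against -0.334 for 100 and -1.04 for the widest set tried (exact permutation p = 0.0571). With 1 library left out it was -0.537 to -0.173, and for detected gene models -289.5 to -45.2. The causes were not tested.

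Replicate numbers did not pair the libraries: the correlations of same-numbered K326 and nic1 nic2 myc2a libraries were 0.129, -0.0326, -0.206 and 0.170. Those of differently numbered libraries ran from -0.25 to 0.176. With the replicate number as a block on the 8 libraries, 159 gene models were called (57 higher, 102 lower), 71 of them among the 127. Among the 65 gene models, the block lost 10 calls. They included Ntab19g030590-1.1 (edgeR adjusted p = 0.083), Ntab03g006010-1.1 (0.0597) and Ntab24g016810-1.1 (0.0735). The abundant fall Ntab10g002480-1.1 (0.0622) was also lost, as were the nearly absent Ntab19g019530-1.1 (0.0752), Ntab03g023410-1.1 (0.0723) and Ntab16g016700-1.1 (0.0674). The median log2 fold change of all tested was -0.01 with TMM and 0.04 with library size only. Counting error limits gene models under 1 CPM most, and gene models by name were not analysed here.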
